A study of Homo sapiens with 24 samples.

Results

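Giant cells of PPC1, a human prostate cancer cell line, gave 12 of the 24 RNA-seq libraries of the study, and these 12 fell into 2 groups that no label names. The libraries of replicate sets 4 and 5, PGCC_4, PGCC_5, PGCC_LCL_4 and PGCC_LCL_5, were compared with the 8 giant cell libraries of sets 1, 2, 3 and 6. A set is one run of the experiment, in which all conditions were harvested side by side, and same-numbered libraries with and without LCL521 belong to one set. The 4 libraries therefore stand for 2 sets and the 8 for 4 sets. The 4 were chosen by a principal component of expression over the libraries of the whole study, giant and parental, so the differences along this division are described below without a test.

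Polyploid giant cancer cells (PGCC) were made by plating PPC1 cells on day 1 and irradiating them on day 2 with 8 Gy of gamma rays. On day 5, by the labels, they were detached and kept on a filter with 20 micron openings, so that large cells were enriched by size. Libraries labelled PGCC_LCL received 5 μM LCL521, an inhibitor of the lysosomal enzyme acid ceramidase (ASAH1), for 5 hours before harvest, and PGCC libraries received none. UT and UT_LCL are the matching parental cells, neither irradiated nor filtered, without and with LCL521. All cells are 1 cell line, and the labels give no date, passage or medium lot for a set. Of the prostate luminal markers KLK3, KLK2 and FOLH1 no read was counted in any giant cell library, TMPRSS2 had at most 0.128 CPM, and STEAP2 had a mean of 17.9 CPM in sets 4 and 5 and 12.4 CPM in the others. The summed level of 5 epithelial markers (KRT8, KRT18, KRT19, EPCAM and CDH1) lay between 1284 and 1508 CPM (read counts scaled by library size) in sets 4 and 5 and between 1001 and 1252 CPM in the other sets. KRT19 carried that difference (1049 against 739.9 CPM). KRT8 (163 against 187.5 CPM), KRT18 (160 against 179 CPM) and CDH1 (1.60 against 1.97 CPM) went against it and were lower in sets 4 and 5. The median log2 difference of the 5 was -0.20.

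Gene lists of a few well known regulatory systems are used below. NF-kB is a family of transcription factors held in the cytoplasm by inhibitors such as NFKBIA, and once released it induces chemokines, survival factors and its own inhibitors. Metallothioneins are small proteins that bind zinc and copper, and the factor MTF1 induces them through short metal response elements when free zinc is high. YAP is the transcriptional coactivator of the Hippo pathway, which responds to cell density, shape and attachment, and CTGF and CYR61 are its usual readouts.

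The regions just before the start of 5 of these genes are printed because all 5 genes lay lower in sets 4 and 5 and hold motifs of NF-kB or MTF1. Each line holds the 250 bases before a RefSeq start on GRCh38.p14, read 5′ to 3′ on the gene's strand. Capitals mark the metal response core, TGCACNC or TGCGCNC on either strand, in MT2A (chr16:56608334-56608583, plus strand) and SLC30A1 (chr1:211579162-211579411, minus strand). In NFKBIA (chr14:35404750-35404999, minus strand), TNFAIP3 (chr6:137867009-137867258, plus strand) and BIRC3 (chr11:102317234-102317483, plus strand) they mark the kappaB consensus of 10 letters on either strand.
MT2A: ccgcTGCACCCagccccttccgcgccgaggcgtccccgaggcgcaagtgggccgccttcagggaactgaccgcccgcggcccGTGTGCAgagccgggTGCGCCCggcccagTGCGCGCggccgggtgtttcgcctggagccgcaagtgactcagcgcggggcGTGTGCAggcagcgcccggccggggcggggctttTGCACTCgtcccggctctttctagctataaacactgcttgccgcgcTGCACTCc
SLC30A1: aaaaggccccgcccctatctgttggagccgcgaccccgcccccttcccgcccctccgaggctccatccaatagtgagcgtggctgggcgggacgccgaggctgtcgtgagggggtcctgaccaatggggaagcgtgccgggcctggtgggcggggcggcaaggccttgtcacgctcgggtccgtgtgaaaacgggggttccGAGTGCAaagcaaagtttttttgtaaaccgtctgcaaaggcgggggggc
NFKBIA: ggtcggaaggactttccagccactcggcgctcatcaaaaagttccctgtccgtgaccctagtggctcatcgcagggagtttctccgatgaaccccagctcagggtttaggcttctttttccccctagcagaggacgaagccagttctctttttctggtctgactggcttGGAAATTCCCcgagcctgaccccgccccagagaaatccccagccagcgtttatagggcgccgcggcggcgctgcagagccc
TNFAIP3: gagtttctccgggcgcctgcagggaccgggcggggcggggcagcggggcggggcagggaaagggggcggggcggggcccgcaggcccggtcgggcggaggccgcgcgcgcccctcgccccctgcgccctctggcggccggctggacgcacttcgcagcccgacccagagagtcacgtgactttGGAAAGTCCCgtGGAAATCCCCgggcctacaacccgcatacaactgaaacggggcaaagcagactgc
BIRC3: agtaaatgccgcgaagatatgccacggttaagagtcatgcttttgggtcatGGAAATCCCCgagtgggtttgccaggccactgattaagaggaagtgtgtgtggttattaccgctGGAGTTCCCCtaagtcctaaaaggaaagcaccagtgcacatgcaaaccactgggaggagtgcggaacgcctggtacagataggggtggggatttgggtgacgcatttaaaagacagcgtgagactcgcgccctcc
MT2A held 7 matches to the metal response core, MT1X 4 and SLC30A1 1, and 24.7% of the 27305 promoters in the table held at least 1. NFKBIA held 1 match to the kappaB consensus, and TNFAIP3, BIRC3 and CXCL2 each held 2, of which those of CXCL2 overlap. At least 1 kappaB match was present in 9.57% of all promoters, in 4 of the 7 with an entry among NF-kB genes called lower below, and in 5 of 7 cytokine and chemokine genes called lower. Among list members with an entry that passed the filter, called or not, 6 of 13 NF-kB and 6 of 12 cytokine and chemokine genes held one. Among the 10767 of 14864 tested genes that have an entry, the metal response core was present in 32.9% and a kappaB match in 11.7%. The metal response core was present in 26.6% of all genes called lower and 27.7% of those called higher. A kappaB match was about as frequent among all genes called higher (18.5% of 65 with an entry) as among all called lower (19.5% of 128). IL8, listed by RefSeq as CXCL8, held none in this window. A match is a string of letters and no measure of binding.

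Total counts lay between 15573469 and 19590419 in the giant cell libraries of sets 4 and 5 and between 15483220 and 19120559 in those of the other sets, so depth did not separate the groups. A count of 3 corresponded to between 0.153 and 0.194 CPM in these libraries, which covers counting error only. The share of counts on the mitochondrial chromosome did separate them, at 4.83% to 5.33% in sets 4 and 5 and 1.92% to 4.55% in the others. The share held by the 10 most abundant genes lay between 5.44% and 5.82% in sets 4 and 5 and between 3.87% and 5.34% in the others. The part of either share in the differences below was not tested.

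On the first principal component of log2 CPM, which held 35.7% of the variance, the libraries of sets 4 and 5 lay between 29.1 and 33.2 and all others at -5.89 or below. As a distance, the root mean square difference of log2 CPM over genes was taken for each pair of libraries. With and without LCL521, libraries of one set lay 0.322 to 0.350 apart. Libraries of set 4 lay 0.343 to 0.383 from those of set 5, which is about as close as libraries of one set. Libraries of sets 1, 2, 3 and 6 were 0.359 to 0.508 from each other and 0.454 to 0.593 from those of sets 4 and 5, and these ranges overlap. Counted on set means, 124 genes differed more than 2-fold between sets 4 and 5, the fewest of any pair of sets, against 162 between sets 3 and 6 and 874 between sets 4 and 6.

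**Figure D1:**
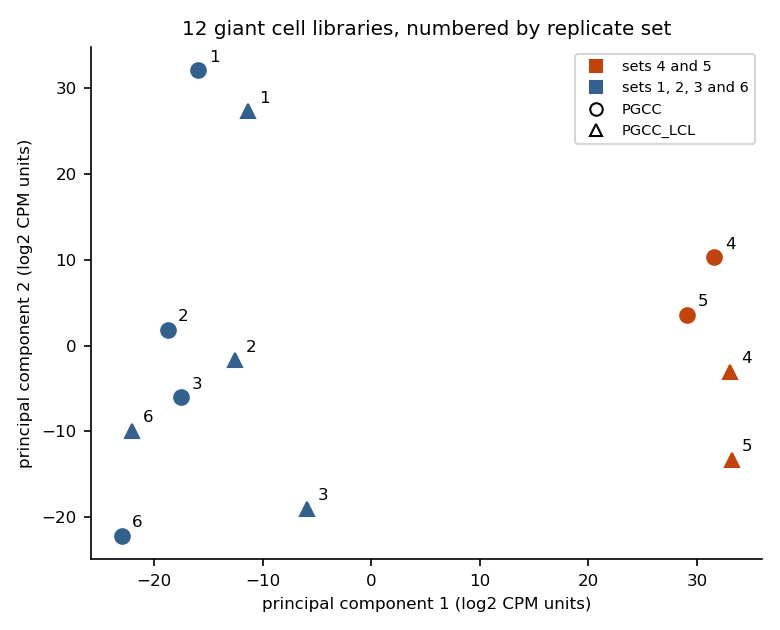
The first 2 principal components of log2 CPM for the 12 giant cell libraries, with circles for PGCC, triangles for PGCC_LCL and the set number beside each point. The 4 libraries of sets 4 and 5 lie between 29.1 and 33.2 on the first axis and the other 8 at -5.89 or below, and the sets 1, 2, 3 and 6 spread along the second axis.

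A gene was called where its log2 difference between the groups of sets was at least 1 in size and all 4 libraries of sets 4 and 5 lay above, or all below, the other 8. Of 14864 genes that passed the filter on low counts, 109 (0.733%) were called higher and 173 (1.16%) lower in sets 4 and 5. Lower calls made up 61.4% of the 282 here, 55.3% with library totals as the scaling, 66.7% in the libraries without LCL521 alone and 49.5% in those with LCL521 alone, so the lean toward lower calls was absent in the last. Without set 5 the 2 counts together were 478 in place of 282. Without the minimum size, 1530 genes (10.3%) lay above and 1649 (11.1%) below without overlap. The median log2 difference of all genes was 0.02 and 95% of genes were under 0.85 in size. A further 164 genes reached a size of 1 but overlapped. The rule had ATF5 (-1.0038), ABL2 (-1.0051) and SYNE1 (-1.0163) just inside it and WT1 (-0.9993), BCAN (0.9972) and PEAK1 (-0.9967) just outside. Abundant genes leaned to one side: of the 104 called genes whose mean log2 CPM was 3 or more, 88 were lower and 16 higher in sets 4 and 5. Protein coding genes made up 151 of the 173 lower and 62 of the 109 higher calls. The 31 gene lists held 40 of the called genes, and 242 were in none.

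The abundant gene with the largest difference was IL8 (ENSG00000169429, chromosome 4, 74606223 to 74609433 on hg19), the chemokine that draws neutrophils. IL8 stood at 79.2 CPM in PGCC_4, 52.6 in PGCC_LCL_4, 42.7 in PGCC_5 and 31.5 in PGCC_LCL_5. In the other 8 libraries it ranged from 223 CPM through a median of 331 to 536. The groups lay far apart, with means of 51.5 ± 20.4 CPM (SD, n = 2 sets) and 361 ± 122 CPM (SD, n = 4 sets) and a log2 difference of -2.82. Of 19 cytokine and chemokine genes that passed the filter, out of 28 on the list, 7 were called lower, against 1.16% of all genes, and none higher. The median log2 difference of the 19 was -0.87. The chemokine CCL20 (log2 difference -2.35), the neutrophil chemokines CXCL2 (-1.92) and CXCL3 (-1.49), the growth factor CSF2 (-2.37), IL6 (-1.83) and IL32 (-1.25) were the other 6. CXCL2 and CXCL3 are closely similar copies whose reads the counting may have split, so their separate values are uncertain. CSF2 (0.508 against 2.65 CPM) and IL6 (0.344 against 1.23 CPM) lay close to the level of 3 counts in sets 4 and 5 and passed the filter only through the other sets. With at least 10 counts required in every library, 5 genes of the list were called.

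CCL20 stood at 6.10 CPM in PGCC_4, 4.53 in PGCC_LCL_4, 2.29 in PGCC_5 and 1.93 in PGCC_LCL_5, and the lowest, median and highest of the other 8 libraries were 7.04, 19.4 and 28.7 CPM. Its groups were separated by less than 1 CPM at their nearest libraries. Neither IL1B (-0.60), IL18 (-0.67) nor LIF (-0.37), a cytokine of the IL6 family, was called, and these 3 genes were nearer to 0.

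Inhibitors and survival genes of the NF-kB system were lower together with the chemokines. NFKBIA (chromosome 14, 35870717 to 35873955), whose promoter is printed above, stood at 36.2 CPM in PGCC_4, 35.5 in PGCC_LCL_4, 27.6 in PGCC_5 and 25.5 in PGCC_LCL_5, against 98.3, 128 and 165 CPM as the lowest, median and highest of the others. TNFAIP3, an enzyme that shuts off NF-kB signaling, had 11.1 ± 1.11 CPM (SD, n = 2 sets) and 45.5 ± 7.95 CPM (SD, n = 4 sets). BIRC3, an inhibitor of apoptosis, had 6.96 ± 0.882 CPM (SD, n = 2 sets) and 42.4 ± 10.1 CPM (SD, n = 4 sets). All 3 genes were called, so by the rule for a call their libraries did not overlap between the groups.

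The median log2 difference of 16 NF-kB genes that passed the filter, out of 17 on the list, was -1.06. Of the 16, 8 were called lower and none higher, where 1.16% of all genes were called lower. Besides BIRC3 (-2.60), TNFAIP3 (-2.02) and NFKBIA (-1.99) these were the signaling adaptor TRAF1 (-1.91), the surface protein CD83 (-1.68), the subunits NFKB1 (-1.40) and RELB (-1.22), and the adhesion molecule ICAM1 (-1.14). REL (-0.97), NFKBIE (-0.95), SOD2 (-0.76), NFKB2 (-0.69) and TNIP1 (-0.64) lay below without reaching the size. NFKBIZ (0.09) and TNFAIP2 (0.26) lay on the other side. Set means were alike within each group: the list's median deviation from the mean of the 6 sets was -0.65 in set 4, -0.75 in set 5 and between 0.25 and 0.44 in the other 4.

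**Figure D2:**
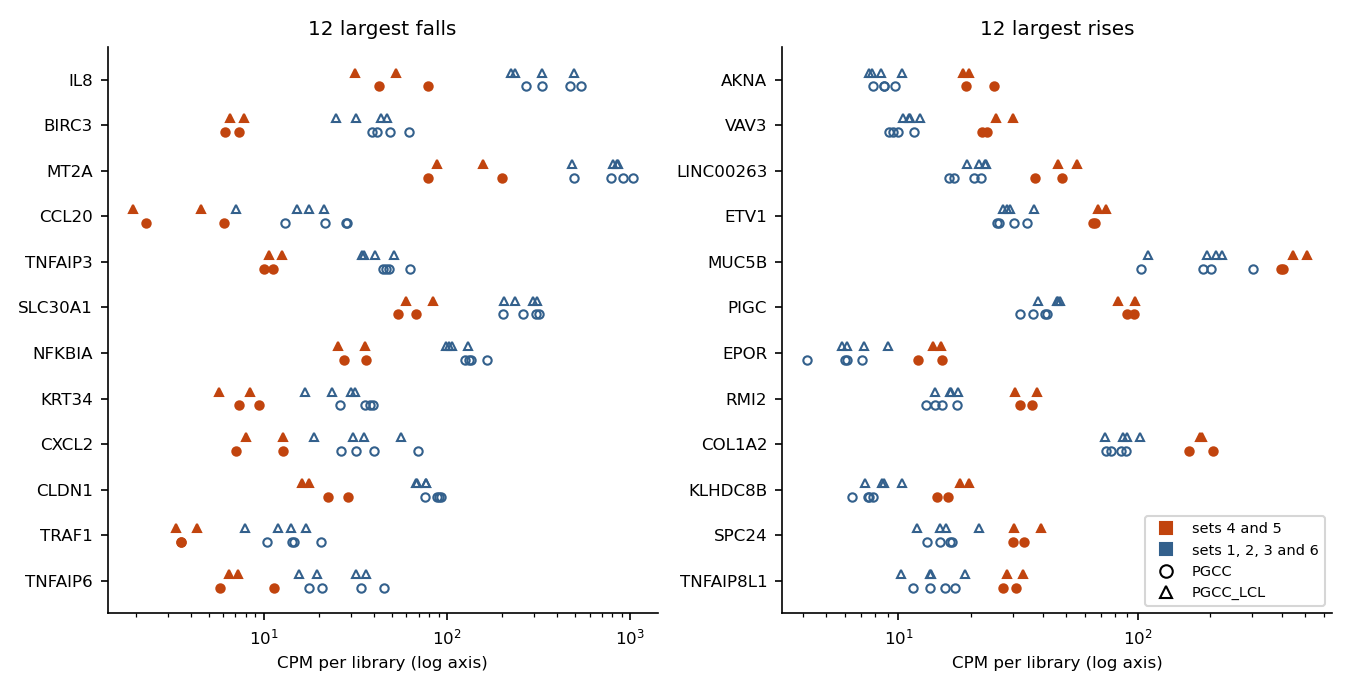
CPM on a log axis in each of the 12 giant cell libraries, for the 12 lowest (left) and the 12 highest (right) log2 differences among called genes whose mean log2 CPM was 3 or more. Filled points are sets 4 and 5, open points the other sets, circles PGCC and triangles PGCC_LCL. By the rule for a call, the filled and the open points do not overlap in any row.

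The metal response genes had the largest median difference of the 31 lists. MT2A (ENSG00000125148, chromosome 16, 56642111 to 56643409), the most abundant metallothionein here, stood at 199.5 CPM in PGCC_4, 157 in PGCC_LCL_4, 78.8 in PGCC_5 and 87.7 in PGCC_LCL_5. The other 8 libraries ranged from 480.4 CPM through a median of 831 to 1031. Its log2 difference was -2.57. Sets of one group differed too, with means of 178 CPM in set 4 and 83.2 in set 5, and of 486.5 CPM in set 1 and 941 in set 3.

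SLC30A1, the zinc exporter of the cell surface and another MTF1 target, had 66.5 ± 13.5 CPM (SD, n = 2 sets) against 266 ± 50.6 CPM (SD, n = 4 sets), a log2 difference of -2.002. MT1X, at 0.698 ± 0.539 CPM (SD, n = 2 sets) and 6.39 ± 2.63 CPM (SD, n = 4 sets), had a log2 difference of -3.17, and in set 5, at 0.260 CPM in PGCC_5 and 0.373 in PGCC_LCL_5, it lay close to the level of 3 counts. These 3 were the only members of the 9 on the list that passed the filter. Metallothionein genes resemble each other closely, so reads of MT1X and MT2A may have been lost or shared in counting, which does not touch SLC30A1. All 3 genes held the metal response core in the 250 bases before their start, as did 32.9% of tested genes with an entry and 24.7% of all promoters.

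Several targets of YAP were lower as well. CTGF, a secreted matrix protein, stood at 78.4 CPM in PGCC_4, 61.0 in PGCC_LCL_4, 63.3 in PGCC_5 and 44.9 in PGCC_LCL_5, against 113, 164 and 268 CPM as the lowest, median and highest of the others. Its difference was -1.49 on the log2 scale. Of 20 YAP targets that passed the filter, out of 22, 5 were called lower and 1 higher, where 1.16% and 0.733% of all genes were. The median log2 difference of the 20 was -0.76. The other 4 lower genes were the growth factor TGFB2 (-1.51), the Hippo regulator AMOTL2 (-1.35), IGFBP3 (-1.16) and GADD45B (-1.11), and CYR61 lay at -0.99. ARHGEF17 was the 1 higher gene, with 6.92 ± 0.438 CPM (SD, n = 2 sets) and 2.84 ± 0.304 CPM (SD, n = 4 sets).

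Genes that shape the extracellular matrix gave calls on both sides, where 1.16% of all genes were called lower and 0.733% higher. PLAU, the urokinase protease, had 174 ± 14.95 CPM (SD, n = 2 sets) against 535 ± 49.7 CPM (SD, n = 4 sets), and with SERPINB2 (-1.47) and MMP3 (-1.24) it made 3 lower calls among 12 matrix protease genes tested. Thrombospondin THBS1 (-1.51) and COL12A1 (-1.05) were among those called lower of 25 collagen and matrix genes. COL1A2, a chain of type I collagen, went the other way. It stood at 164 CPM in PGCC_4, 183 in PGCC_LCL_4, 206 in PGCC_5 and 186 in PGCC_LCL_5, and at 72.8, 86.1 and 102 CPM as the lowest, median and highest of the others. COL1A1, the other chain of the same collagen, differed by only 0.08 on the log2 scale.

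Among fibroblast markers, the summed level lay between 172 and 215 CPM in sets 4 and 5 and between 79.3 and 110 CPM in the other sets, and COL1A2 holds most of that sum. All 6 fibroblast markers had at least 1 read in each group of sets, and 2 passed the filter. The 6 blood cell markers, of which HBB was at 0 in every giant cell library, summed to between 2.70 and 3.26 CPM in sets 4 and 5 and between 2.85 and 4.42 CPM in the others. Sums of 6 neuroendocrine markers (39.0 to 51.0 against 24.1 to 34.1 CPM), 6 melanoma markers (29.8 to 34.4 against 19.1 to 25.7 CPM), 4 basal prostate markers (60.2 to 83.7 against 41.1 to 56.2 CPM) and 3 endothelial markers (5.21 to 6.63 against 2.22 to 4.24 CPM) were higher in sets 4 and 5. Each of these 4 sums was carried mostly by 1 gene, ENO2, MITF, KRT15 and KDR in that order, while INSM1 was at 0 in all and TYR at 0 in sets 4 and 5. Their part in the differences was not tested. In such bulk libraries, fewer cells of a type and less RNA per cell cannot be told apart.

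Abundant genes called higher in sets 4 and 5 had smaller differences than those called lower. AKNA, which organizes microtubules at the centrosome, had 20.6 ± 1.66 CPM (SD, n = 2 sets) and 8.62 ± 0.762 CPM (SD, n = 4 sets), with a log2 difference of 1.26, the highest among called genes whose mean log2 CPM was 3 or more. VAV3 had 25.3 ± 1.29 CPM (SD, n = 2 sets) and 10.6 ± 0.954 CPM (SD, n = 4 sets). ETV1, an ETS transcription factor, had 68.3 ± 2.16 CPM (SD, n = 2 sets) and 29.8 ± 4.17 CPM (SD, n = 4 sets). Others were the mucin MUC5B (1.19), PIGC of the GPI anchor pathway (1.16), the erythropoietin receptor EPOR (1.14), RMI2 of the complex that dissolves recombination intermediates (1.13) and SPC24 of the kinetochore (1.09), with LINC00263 (1.20), KLHDC8B (1.10) and TNFAIP8L1 (1.07). In the 5 lists that hold cell cycle, p53 and ATF4 genes, SPC24 was the only member called higher.

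Single members were called in lists whose medians lay nearer to 0, where 1.16% of all genes were called lower. CDKN1A, the p21 inhibitor of cyclin-dependent kinases, stood at 70.2 CPM in PGCC_4, 67.0 in PGCC_LCL_4, 54.0 in PGCC_5 and 56.2 in PGCC_LCL_5. In the other 8 libraries it lay in the narrow range of 170.4 to 190.5 CPM. The median log2 difference over 23 p53 targets was -0.01, and MDM2 (-0.01), GDF15 (0.06) and BAX (0.21) were near 0. CDKN1A (-1.54) was the list's only call, since TP53INP1 (1.73) overlapped between the groups. ATF3 (-1.47) was likewise the only call of 32 ATF4 targets, SGK1 (-1.18) of 5 glucocorticoid response genes and CLDN1 (-1.91), the tight junction protein, of 17 epithelial genes. Of 36 interferon-stimulated genes, GBP1 (-2.12) and IRF1 (-1.28) were called, SKIL (-1.13) was the call of 10 mesenchymal genes, and KRT34 (-1.96), TNFAIP6 (-1.84) and CPA4 (-1.64) were lower outside these lists.

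Some lists had medians away from 0 with at most 1 member called. All 13 protein genes of the mitochondrial chromosome were higher, by 0.41 to 0.77 on the log2 scale with a median of 0.61. Of these, 5 separated the groups, where 10.3% of all genes lay above without overlap. MT-ND1, a subunit of complex I, stood at 4805 ± 34.9 CPM (SD, n = 2 sets) and 2839 ± 777 CPM (SD, n = 4 sets). Among sets 1, 2, 3 and 6 the list's median deviation from the mean of the 6 sets ranged from -0.79 in set 1 to 0.24 in set 2, and it was 0.51 in set 4 and 0.36 in set 5, so set 2 lay close to set 5. The 55 nuclear genes of oxidative phosphorylation had a median of only -0.07. Heat shock genes had a median of -0.56 over 14, with 13 of 14 below 0. HSPA8 (-0.98) and DNAJA1 (-0.93) were among them, while HSPA1A (-0.99) and HSPA1B (-0.95) are near-identical copies and uncertain. FOXO targets had a median of 0.29 over 18, with KLHL24 highest at 0.96, and ribosome biogenesis a median of -0.27 over 42. Chaperones of the endoplasmic reticulum and the unfolded protein response had a median of -0.23 over 21, with 19 below 0, and DNAJB9 (-1.14) was the only call. Of the 21, 11 lay below without overlap, as did 11.1% of all genes. DNA replication (median 0.05 over 44), mitosis (0.11 over 46), sterol synthesis and uptake (0.14 over 26), lysosome (-0.01 over 32), MHC class I presentation (-0.18 over 9) and cytosolic ribosomal proteins (-0.12 over 75) had smaller medians. The ribosomal protein genes were nevertheless one-sided, with 72 of 75 below 0. Of the 75, 3 lay below without overlap, a smaller share than the 11.1% of all genes that did. Medians were also small for histone cluster genes (-0.14 over 14), aminoacyl-tRNA synthetases (0.01 over 20), fatty acid synthesis (0.09 over 12), hypoxia and glycolysis (-0.04 over 30), NRF2 targets (-0.04 over 19), immediate early genes (-0.11 over 25) and the circadian clock (0.08 over 14).

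**Figure D3:**
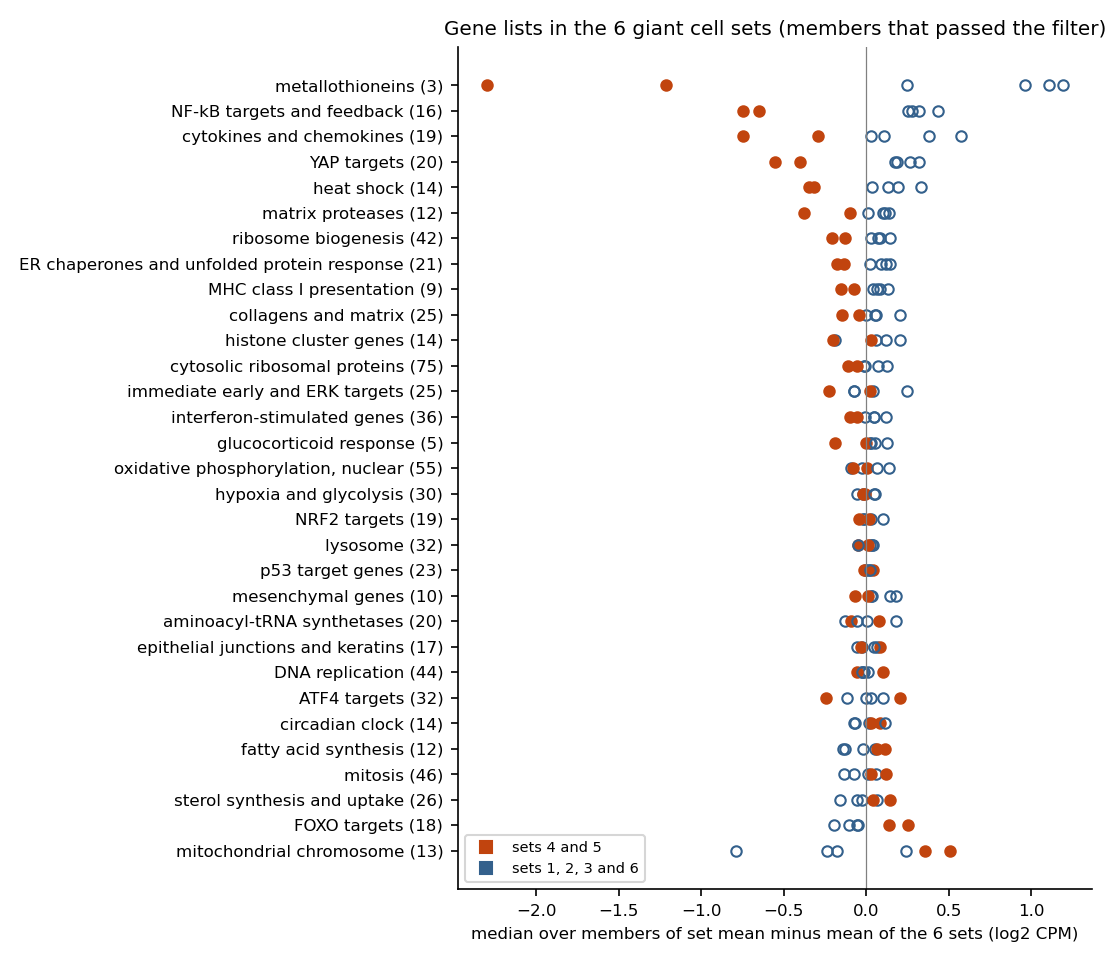
For each of 31 gene lists, with the number of members that passed the filter in brackets, the median over members of a set's mean log2 CPM minus the mean of the 6 giant cell sets. Filled points are sets 4 and 5 and open points sets 1, 2, 3 and 6. The groups lie far apart for metallothioneins, NF-kB targets, YAP targets and heat shock genes. Cytokines separate less clearly, since set 4 (-0.294) lies nearer to set 1 (0.031) than to set 5 (-0.745). Several other lists also separate the groups, by smaller gaps, among them FOXO targets and ribosome biogenesis, and the rest mix.

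The parental cells harvested in the same runs show whether the division looks alike without irradiation. To compare them, counts with and without LCL521 were summed to 1 library for each set and population, and edgeR's quasi-likelihood fit gave the interaction of population with group of sets. The parental libraries were among those on which the division was chosen, so these values are a description with no test. An adjusted p of 0.05 served only as a cut on the size of a difference relative to its spread. Counts past this cut carry no error rate, and a gene short of it was not shown to be alike in both populations. Because of how the division was chosen, no interval or standard error is given for a single gene. Of 16887 genes, 2320 lay past the cut: the difference in giant cells lay above that in parental cells in 1092 (6.47%) and below it in 1228 (7.27%). With the set as a replicate block, 3760 genes lay past it, 1746 above and 2014 below, 2317 of them shared. Without set 4 the number was 928 and without set 5 it was 780. Of the 282 genes called in giant cells, 220 had the same sign in parental cells. The share with the same sign over all genes was not counted. Both populations took part in choosing the division, so part of this likeness may come from that choice. Across all genes, which are not independent, the differences correlated with r = 0.36.

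MT2A was lower in sets 4 and 5 of both populations. Parental MT2A stood at 151 and 90.7 CPM in sets 4 and 5 and at 538, 1232, 842 and 863 CPM in sets 1, 2, 3 and 6. Its difference was -2.84 in parental and -2.57 in giant cells, and these 2 values differed by 0.27. MT1X was lower in both as well, and its differences of -3.19 in giant and -3.79 in parental cells differed by 0.60. SLC30A1, in contrast, was lower by 2.03 in giant and by 0.85 in parental cells on the log2 scale, a difference of -1.18. Heat shock genes were lower in both, with list medians of -0.58 in giant and -1.24 in parental cells. In 8 of 14 the giant cell difference lay above the parental one past the cut, against 6.47% of all genes, and in none below. Mitochondrial genes had medians of 0.58 in giant and 1.26 in parental cells. None of 13 lay past the cut, or 9 below with the block, where 2014 of 16887 genes lay below. CDKN1A was lower by 1.56 in giant and by 1.08 in parental cells on the log2 scale, and the difference between these lay past the cut with the block alone. The block also moved the number past the cut above from 5 to 12 of 42 ribosome biogenesis genes, from 7 to 11 of 26 sterol genes and from 8 to 15 of 30 hypoxia and glycolysis genes. Over all 16887 genes it moved that number from 1092 to 1746.

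The chemokines were another case. Parental cells held little IL8, at 12.1 and 5.75 CPM in sets 4 and 5 and 6.92, 4.38, 6.94 and 7.86 CPM in sets 1, 2, 3 and 6, where the groups overlap. Its difference was -2.80 in giant and 0.46 in parental cells, and these differed by -3.25. CCL20 was lower by 2.35 in giant cells and higher in parental cells, by 1.86, but the parental value came from set 4 alone, at 4.93 CPM, with 0.804 CPM in set 5 and 0.507 to 1.32 CPM in the others. Of all genes, 7.27% lay past the cut below and 6.47% above. For cytokines and chemokines it was 7 of 21 below and none above. For NF-kB genes it was 8 of 17 below and 1 above, where list medians were -0.997 in giant and -0.45 in parental cells. NFKBIA (-1.36) and BIRC3 (-2.35) were among the 8. TNFAIP3 (-1.13) was too, but its difference was -0.47 without set 4.

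The genes with the 2 largest differences between the populations were SESN2 and CHAC1, and in giant cells SESN2 lay near 0. SESN2, a stress-induced inhibitor of mTORC1, stood at 139 and 142 CPM in parental sets 4 and 5 and between 3.85 and 6.23 CPM in the other parental sets, with no overlap. In giant cells it stood at 41.5 and 25.3 CPM in sets 4 and 5 and between 30.9 and 43.1 CPM in the others. The differences were 4.71 and -0.08 on the log2 scale, and their difference was -4.79. CHAC1, an enzyme that degrades glutathione, differed by -4.66, with 94.3 and 100 CPM in parental sets 4 and 5 and at most 3.99 CPM in the others. Its log2 difference along the division in giant cells was 0.29, but sets 4 and 5 disagreed. Means of single giant cell libraries were 28.1 CPM in set 4 and 11.8 in set 5, on either side of 13.9 to 20.5 in the others. ATF3 (-4.27) was higher in parental and lower in giant cells of sets 4 and 5. Of 32 ATF4 targets, 25 lay past the cut below, against 7.27% of all genes, and none above. Their median difference was 1.45 in parental and 0.06 in giant cells. That giant cell median lay between sets that differed, since the list's median deviation from the mean of the 6 giant cell sets was 0.20 in set 4 and -0.24 in set 5, and it ranged from -0.28 to 0.23 with each set left out. WDR72 (-4.03) followed, from at most 0.539 CPM in parental sets 1, 2, 3 and 6 to 5.34 and 3.56 CPM in sets 4 and 5.

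On the opposite side stood genes of DNA replication. ORC1 is the largest subunit of the origin recognition complex. It had 1.31 and 3.06 CPM in parental sets 4 and 5 and 12.9 to 22.2 CPM in the others. In all giant cell sets ORC1 lay between 20.8 and 24.6 CPM (difference 3.09). ZNF367 (3.65), E2F2 (3.39) and the antisense gene AC137932.6 (3.25) lay in the same direction. Strand use in counting is not stated, so reads of AC137932.6 and of the gene opposite to it cannot be told apart. Of 44 replication genes 31 lay past the cut above, against 6.47% of all genes, and none below. Their medians were 0.03 in giant and -0.82 in parental cells. Mitosis genes were the reverse, with 28 of 46 past the cut below, against 7.27% of all genes, and none above. The mitosis medians were 0.09 in giant and 0.95 in parental cells. The carboxypeptidase CPA4 was lower in both populations, by 1.67 in giant and by 4.89 in parental cells on the log2 scale. AKNA was higher in both, by 1.25 in giant and by 3.50 in parental cells.

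**Figure D4:**
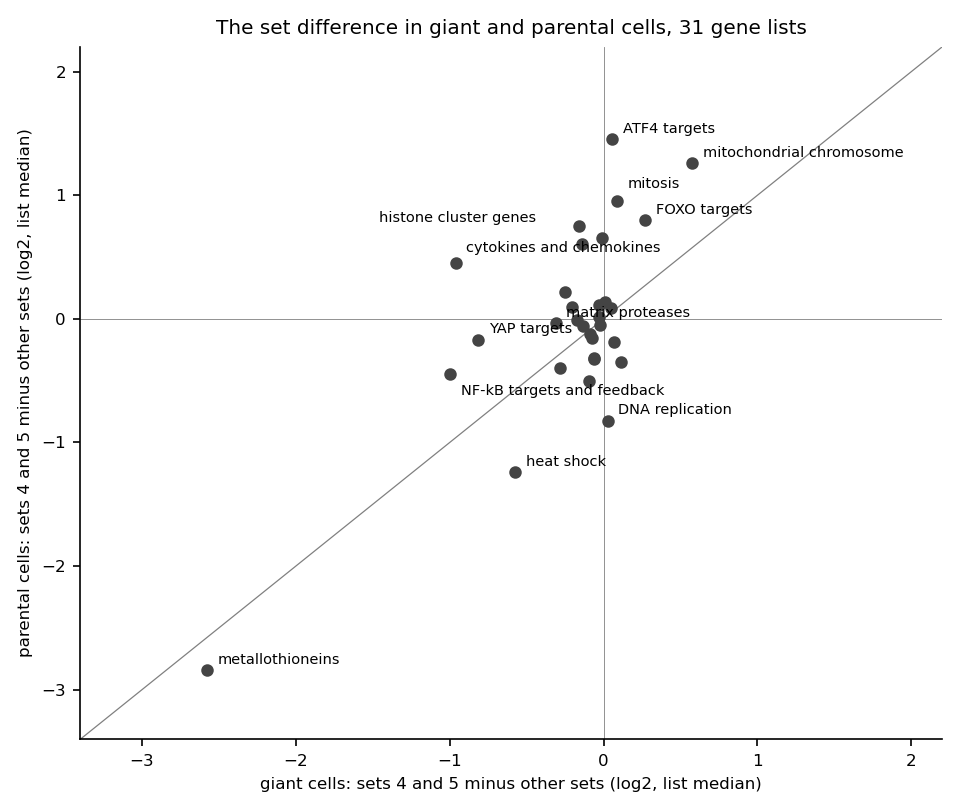
Each point is the median over one of 31 gene lists of the log2 difference between sets 4 and 5 and the other sets, in giant cells (x axis) and in parental cells (y axis), with the diagonal marking equal values. Metallothioneins lie near the diagonal at -2.58 and -2.84, ATF4 targets near 0 in giant cells and at 1.45 in parental cells, and cytokines and chemokines at -0.96 and 0.46.

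The response to LCL521 is a contrast that the division did not use. The interaction of LCL521 with group of sets asks whether 5 hours of acid ceramidase inhibition changed giant cells of sets 4 and 5 as it changed the others. By edgeR's quasi-likelihood test without a term for the set, none of 15227 genes (0%) passed at an adjusted p of 0.05. In that fit 214 had an unadjusted p under 0.05, and the pairing of libraries within a set went unused. Limma-voom and DESeq2, also run without that term, passed none either. The smallest p-values belonged to SERGEF, RP11-274B21.4 and SLC26A8, each at an adjusted p of 0.999. With the set as a replicate block, 7 genes (0.046%) passed and 1121 had an unadjusted p under 0.05.

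These 7 were DKK1, a secreted Wnt inhibitor, TMEM238, BHLHE40, a clock-related repressor, ICAM1, SETD1B, a histone methyltransferase, DOK3, an adaptor of immune receptors, and the long noncoding RNA MALAT1. DKK1 differed with LCL521 by -0.61 in set 4 and -0.55 in set 5, and by -0.23 to -0.07 in the other sets on the log2 scale, a difference of -0.45 (standard error 0.07, adjusted p = 0.00516 with the block). BHLHE40 differed by 0.47 in both sets 4 and 5 and by -0.07 to 0.11 in the others (difference 0.47, adjusted p = 0.0211 with the block). MALAT1 differed by 0.44 and 0.59 against -0.41 to 0.20 (difference 0.63, adjusted p = 0.0128 with the block).

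ICAM1 (0.47), SETD1B (0.45), DOK3 (0.81) and TMEM238 (-0.71) each had an adjusted p of 0.0475 with the block. TMEM238 rested on set 5, at -0.90, since it differed by -0.11 in set 4 and its difference without set 5 was -0.28 with an adjusted p of 0.565. Without set 2 none of the 7 passed, and the smallest adjusted p was that of DKK1, at 0.0709.

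For INSIG1, RRAGC, STX3, ASAH1 and SCARB1, a fixed choice of names, no difference passed, and the intervals bound its size. The paper reported INSIG1, RRAGC and STX3 as raised by LCL521 in these same giant cell libraries. A rise in both groups of sets was therefore partly fixed by that choice. INSIG1, which senses sterols and retains the SREBP factors, was higher with LCL521 by 0.76 in set 4 and 0.71 in set 5 and by 0.16 to 0.89 in the others, and the effects of 0.73 and 0.62 differed by 0.11 (95% interval -0.28 to 0.49). RRAGC, a GTPase of the lysosomal nutrient sensor, had effects of 0.39 and 0.36, which differed by 0.02 (95% interval -0.28 to 0.32). STX3, a membrane fusion protein, had effects of 0.34 and 0.40, which differed by -0.06 (95% interval -0.37 to 0.26). ASAH1, the target of the drug, had effects of -0.05 and 0.08, which differed by -0.13 (95% interval -0.41 to 0.14), and levels of 52.1 ± 4.02 CPM (SD, n = 2 sets) and 51.1 ± 1.88 CPM (SD, n = 4 sets). SCARB1, the receptor for high-density lipoprotein, had effects of 0.03 and 0.07, which differed by -0.04 (95% interval -0.27 to 0.19), and levels of 123 ± 4.75 CPM (SD, n = 2 sets) and 130 ± 2.54 CPM (SD, n = 4 sets).

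**Figure D5:**
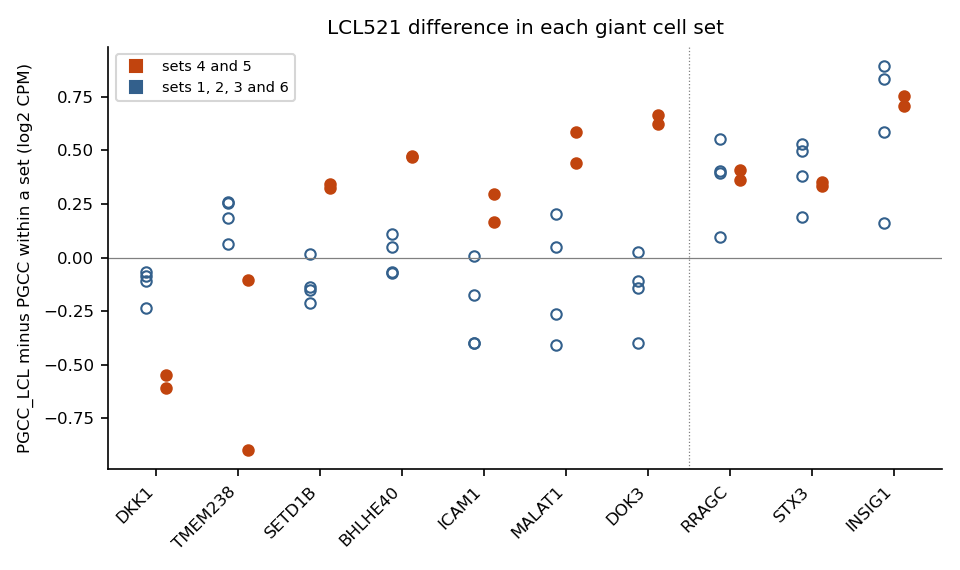
The log2 difference between PGCC_LCL and PGCC within each giant cell set, for the 7 genes that passed the interaction with the replicate block (left of the dotted line) and for RRAGC, STX3 and INSIG1 (right). Filled points are sets 4 and 5 and open points the other 4 sets: DKK1 lies at -0.61 and -0.55 in sets 4 and 5, while RRAGC, STX3 and INSIG1 overlap between the groups.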

How the data were processed

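RNA from PPC1 cells was sequenced in 4 conditions of 6 libraries. The authors deposited read counts per gene for 48162 genes, not normalized, per the labels made with STAR and HTSeq on hg19. Strand handling is not given in the sources used here. No per-sample column was left out. Members, lists and tests were chosen with earlier results of these data known, and the division itself comes from the expression values.

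With R 4.3.3 and edgeR 4.0.16, genes were filtered by filterByExpr on the design of each fit (minimum count 10, minimum total 15) and scaled by TMM. The difference along the division came from a quasi-likelihood fit on 12 giant cell libraries with LCL521 as covariate, and SDs are over set means. For the interaction with LCL521 edgeR's quasi-likelihood test was used, Benjamini-Hochberg adjusted, without and with the set as a replicate block. The interaction with population was planned as a test but is given as a description, because parental libraries took part in choosing the division. Log2 CPM used a prior count of 2. CPM set beside parental values came from summed libraries and differ slightly from those of single libraries.

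The design text has all conditions harvested together in each of 6 runs. Same-numbered libraries deviated together, with correlations of 0.371 to 0.595 between PGCC and PGCC_LCL, 0.227 to 0.404 between PGCC and UT and 0.169 to 0.421 between PGCC_LCL and UT_LCL. Over all 6 sets, the best match was the same number for 6, 5 and 3 of 6 libraries in the same order. Within sets 1, 2, 3 and 6, with the group difference taken out, same-numbered correlations were 0.302 to 0.514, 0.136 to 0.439 and 0.077 to 0.415. The numbers were therefore taken to pair the libraries, least clearly between PGCC_LCL and UT_LCL. No 2 giant cell libraries agreed within sampling noise: chi-square per degree of freedom was 3.11 to 43.5 in 66 pairs.

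Named genes were the 12 largest rises and 12 largest falls among called genes whose mean log2 CPM was 3 or more, up to 2 called members in each direction of each list (the largest where none was called), the 5 largest in each direction for each interaction (the 3 smallest p where none passed) and INSIG1, ASAH1, RRAGC, STX3 and SCARB1. Further list members were named after their values were seen, and some genes that met the rule are not reported here. Alternatives were RLE, upper quartile and library totals, other filters, limma-voom 3.58.1, DESeq2 1.42.0, the replicate block, a length correction and each set left out. Promoters came from RefSeq (GRCh38.p14), matched from Ensembl ID to symbol. Of the 14864 genes tested 10767 matched, too few for a check over tested genes, so their motif shares are descriptions. Scripts were tested on simulated data.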

Additional observations from a re-analysis of the deposited data

Results flagged for a closer look

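Among giant cell sets 1, 2, 3 and 6, one set stood apart from the other 3 by Dixon's criterion for 3 of 62 genes examined, and chance alone gives about 1 in 20. In NFKBIA set 6 had 148 CPM and the others 115 to 119 CPM. In TNFAIP3 set 6 had 57.4 CPM and the others 40.8 to 42.6 CPM. In INSIG1 set 3 had 89.2 CPM and the others 74.8 to 76.8 CPM.

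With the replicate block, the LCL521 effect differed between sets 4 and 5 and the other giant cell sets in 7 genes, by -0.45 in DKK1, -0.71 in TMEM238, 0.47 in BHLHE40, 0.81 in DOK3, 0.47 in ICAM1, 0.63 in MALAT1 and 0.45 in SETD1B on the log2 scale. The difference between the groups of sets lay apart in giant and parental cells, a description with no test since both populations took part in choosing the division, by -4.79 in SESN2, -4.66 in CHAC1, -4.27 in ATF3, -4.22 in CCL20, -4.03 in WDR72, 3.65 in ZNF367, 3.39 in E2F2, 3.25 in AC137932.6, 3.22 in CPA4 and 3.09 in ORC1. The cause was not tested.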

How the results depend on the processing

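The number of genes called along the division was 282. RLE, upper quartile factors, library totals, both other filters, limma-voom, DESeq2, set means and leaving out the covariate gave 192 to 409. It was 531 in the libraries without LCL521 alone and 481 in those with LCL521 alone, where fewer libraries have to be separated, and 276 to 478 with each set left out, of which 478 without set 5. No named gene's difference along the division that was called changed sign. The rule for a call, with no overlap and a size of at least 1, largely fixed this beforehand. The list medians of p53 targets, aminoacyl-tRNA synthetases, lysosome and mesenchymal genes changed sign with the scaling, and their values given above were within 0.1 of 0. Over all settings the lysosome median ranged from -0.1252 to 0.019. The epithelial median reached -0.1746 in a setting that left out no set. With sets left out, the medians of ATF4 targets, aminoacyl-tRNA synthetases, DNA replication, epithelial, mesenchymal, glucocorticoid response and p53 lists changed sign.

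For the LCL521 interaction the count of 0 became 1 without a filter, 7 with the replicate block and 10 with the block and a length correction. Without the block it was 0 with each set left out. With the block and a set left out, combinations chosen after seeing the data, it was 2, 0, 17, 1, 27 and 5 without sets 1 to 6 in turn. With sets left out, INSIG1 ranged from -0.0366 to 0.2095, RRAGC from -0.0613 to 0.0991 and SCARB1 from -0.1401 to 0.0914, and among the fits with the block INSIG1 reached -0.0314, RRAGC -0.0599 and SCARB1 0.0039 and 0.0916.

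For the population interaction, a description, the count of 2320 past the cut became 3760 with the replicate block, 3499 with the block in libraries without LCL521 alone and 6258 with the block in 24 libraries not summed, where a set counts more than once. With sets left out it was 780 (without set 5) to 2414, and 2017 to 3700 with the block, of which 3550 without set 3. With the block in libraries without LCL521 alone, ASAH1 (0.0465), INSIG1 (0.0661), KRT34 (-0.18) and SPC24 (-0.16) had the opposite sign. With sets left out, INSIG1 ranged from -0.3933 to 0.2128 (0.1886 with the block), KRT34 from -0.7502 to 1.12 (-0.7338 and -0.113 with the block), COL1A2 from -0.0825 to 0.5944 (-0.0829), SPC24 from -0.0526 to 0.3564 (-0.0641) and TNFAIP8L1 from -0.1183 to 0.4311 (-0.1099 with the block), and PIGC reached -0.0068 with the block. TNFAIP3 and MUC5B fell short of the cut in several settings. The cause was not tested. Only 2 sets stand on one side of the division, which limits every comparison.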
